A study of Mus musculus with 2 samples.

Results

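The genes described here encode extracellular proteases and the proteins that inhibit them. They were taken from the deposited table by symbol and biotype: protein-coding rows of the matrix metalloproteinases (Mmp), the ADAM and ADAMTS metalloproteinases, the tissue inhibitors of metalloproteinases (Timp), serpins of clades B, E and F, Serping1 and Serpinh1, and Plau, Plat and Plaur. This gave 114 genes of 54532 in the table. Of the 114, 47 had no count in either library, 31 had counts but stayed in both under 1 CPM (the count scaled to a library total of 1000000), and 36 reached 1 CPM in at least 1 library and are called measured below.

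Messenger RNA was sequenced from CMT167R cells, a derivative of the mouse lung carcinoma line CMT167 that the labels describe as resistant to anti-PD1, in 2 libraries. The CON library came from untreated cells and the PKCi library from cells exposed for 24 h to 50 nM of a compound named only PKCi, and both came from the same resistant line, with no parental CMT167 cells. The identity of the compound is not stated, nor whether the untreated cells received a vehicle or how many cultures went into a library. The libraries held 16090186 and 16071153 gene counts, so about 16.1 counts made 1 CPM. A gene without a count could still be at up to 0.186 CPM (untreated) or 0.187 CPM (PKCi), which is what 3 counts amount to. Each group being 1 library, there is no replicate error and no p-value. Each fold is the plain ratio of CPM, and its counting interval is the 95% exact conditional binomial interval, which covers counting error between these libraries and nothing else.

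Epithelial markers were present in both libraries, with Krt8 at 15012 and 18992 counts. Of 9 listed markers 8 reached 1 CPM in at least 1 library, Esrp1 (18 and 9 counts) only in the untreated one. Cdh1 (47 and 54 counts) and Epcam (56 and 101 counts) were far below Krt8. The lung alveolar markers Nkx2-1, Sftpc and Sftpb were at 0 in both, and no marker of that list reached 1 CPM. The labels also hold an extraction protocol for retinas, and 8 of 11 retina markers were at 0 in both libraries, with a summed level of 0.249 and 0.373 CPM for the list. Of 14 leukocyte markers 9 were at 0 in both, Ptprc, Itgam and Adgre1 among them. The list summed to 67.8 and 107.8 CPM, most of it Cd14 (915 and 1621 counts). Lyz2 (133 and 50 counts) and Cd68 (38 and 57 counts) also reached 1 CPM. Of 10 fibroblast markers 3 were at 0 in both and 5 reached 1 CPM in a library. The list summed to 101.2 and 38.3 CPM, most of it Pdgfrb (1422 and 392 counts). The others at 1 CPM were Col1a1 (143 and 70 counts), Pdgfra (43 and 97), Col3a1 (14 and 38) and Dcn (1 and 17). Of 8 endothelial markers 3 were at 0 in both, and the list summed to 0.621 and 1.24 CPM. The part of these marker levels in the results below was not tested.

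Cells cut and remodel their surroundings with proteases that are secreted or anchored at the surface, and most are made as inactive proenzymes. MMPs cleave collagens, other matrix proteins and surface proteins, and TIMPs bind their active site. ADAMs shed growth factors, cytokines and receptors from the membrane, while the secreted ADAMTS enzymes cut proteoglycans and procollagens. Urokinase (Plau) and tissue plasminogen activator (Plat) turn plasminogen into plasmin. Serpins are suicide substrates of serine proteases, and clade B serpins mostly stay inside the cell and protect it from proteases released there. Promoters of several MMP genes are textbook targets of the transcription factor AP-1.

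Several MMP genes that lie side by side stood higher together in the PKCi library. The sequence next to the start is shown here for some of them. Only windows that hold the AP-1 letters were chosen, so every line carries these letters by choice. Each line gives the 100 bases directly before the start of transcription, on the strand of the gene, from the RefSeq promoter table of build GRCm38.p6. Capitals mark the AP-1 letters searched, TGAGTCA or TGACTCA, which are reverse complements of each other.
Mmp3, chr9:7445722-7445821, plus strand: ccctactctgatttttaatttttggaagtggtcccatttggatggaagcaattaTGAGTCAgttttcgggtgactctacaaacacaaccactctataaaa
Mmp10, chr9:7502242-7502341, plus strand: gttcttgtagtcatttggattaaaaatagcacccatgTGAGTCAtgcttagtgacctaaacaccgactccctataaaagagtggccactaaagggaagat
Mmp13, chr9:7272414-7272513, plus strand: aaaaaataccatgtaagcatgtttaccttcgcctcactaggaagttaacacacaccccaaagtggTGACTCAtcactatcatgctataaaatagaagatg
Mmp12, chr9:7347274-7347373, plus strand: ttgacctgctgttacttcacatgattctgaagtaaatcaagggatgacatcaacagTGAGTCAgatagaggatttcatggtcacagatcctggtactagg

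The same letters also stood before the start of measured members that were not 2-fold higher, shown for contrast. Mmp14 and Serpinb6a, which were 2-fold or more higher, had no match in their windows and are not shown.
Plaur, chr7:24462383-24462482, plus strand: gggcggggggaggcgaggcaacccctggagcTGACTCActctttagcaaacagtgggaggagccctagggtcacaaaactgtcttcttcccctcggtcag
Serpinb8, chr1:107589906-107590005, plus strand: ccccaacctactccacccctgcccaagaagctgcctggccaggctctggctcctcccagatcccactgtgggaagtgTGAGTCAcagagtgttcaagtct
The first base of the match lies at -46 in Mmp3, -63 in Mmp10, -35 in Mmp13 and -44 in Mmp12, counted back from the base before the start. In Plaur it lies at -69. Serpinb8 has matches at -23 and, past the start, at 14. The Mmp12 line belongs to the downstream of its 2 listed starts, which lies inside the gene, and the window of the upstream start had no match.

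The 36 measured genes differed between the libraries in both directions, with MMP and ADAMTS genes on the higher side. Mmp14, Mmp3, Mmp10, Mmp13, Adamts4, Adamts7 and Serpinb6a were higher with PKCi by 2-fold or more on the scale of log2(CPM + 1), where the added 1 CPM pulls the ratio of weakly counted genes toward 0. Serpinb6b and Serpinb8 were lower by as much. These are 9 of 36 (25.0%), while of the 12273 genes of the whole table that reached 1 CPM 11.7% were at least 2-fold apart, 6.53% higher and 5.13% lower. Of the 36 members, 27 had a log2 ratio above 0 and 9 below, against 49.2% above 0 among all genes, and the median log2 ratio was 0.38 for the members and -0.01 for all genes. Since 7 of the 36 reached 1 CPM only in the PKCi library and 1 only in the untreated library, these counts lean toward genes that differ. Of the 28 members that reached 1 CPM in both libraries, 5 were higher and 2 lower by 2-fold or more. Among all 11351 such genes 10.4% were, 5.55% higher and 4.82% lower. The 31 members that had counts but stayed under 1 CPM summed to 75 counts untreated and 89 with PKCi, with 18 on the higher and 13 on the lower side and no count above 16.

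**Figure D1:**
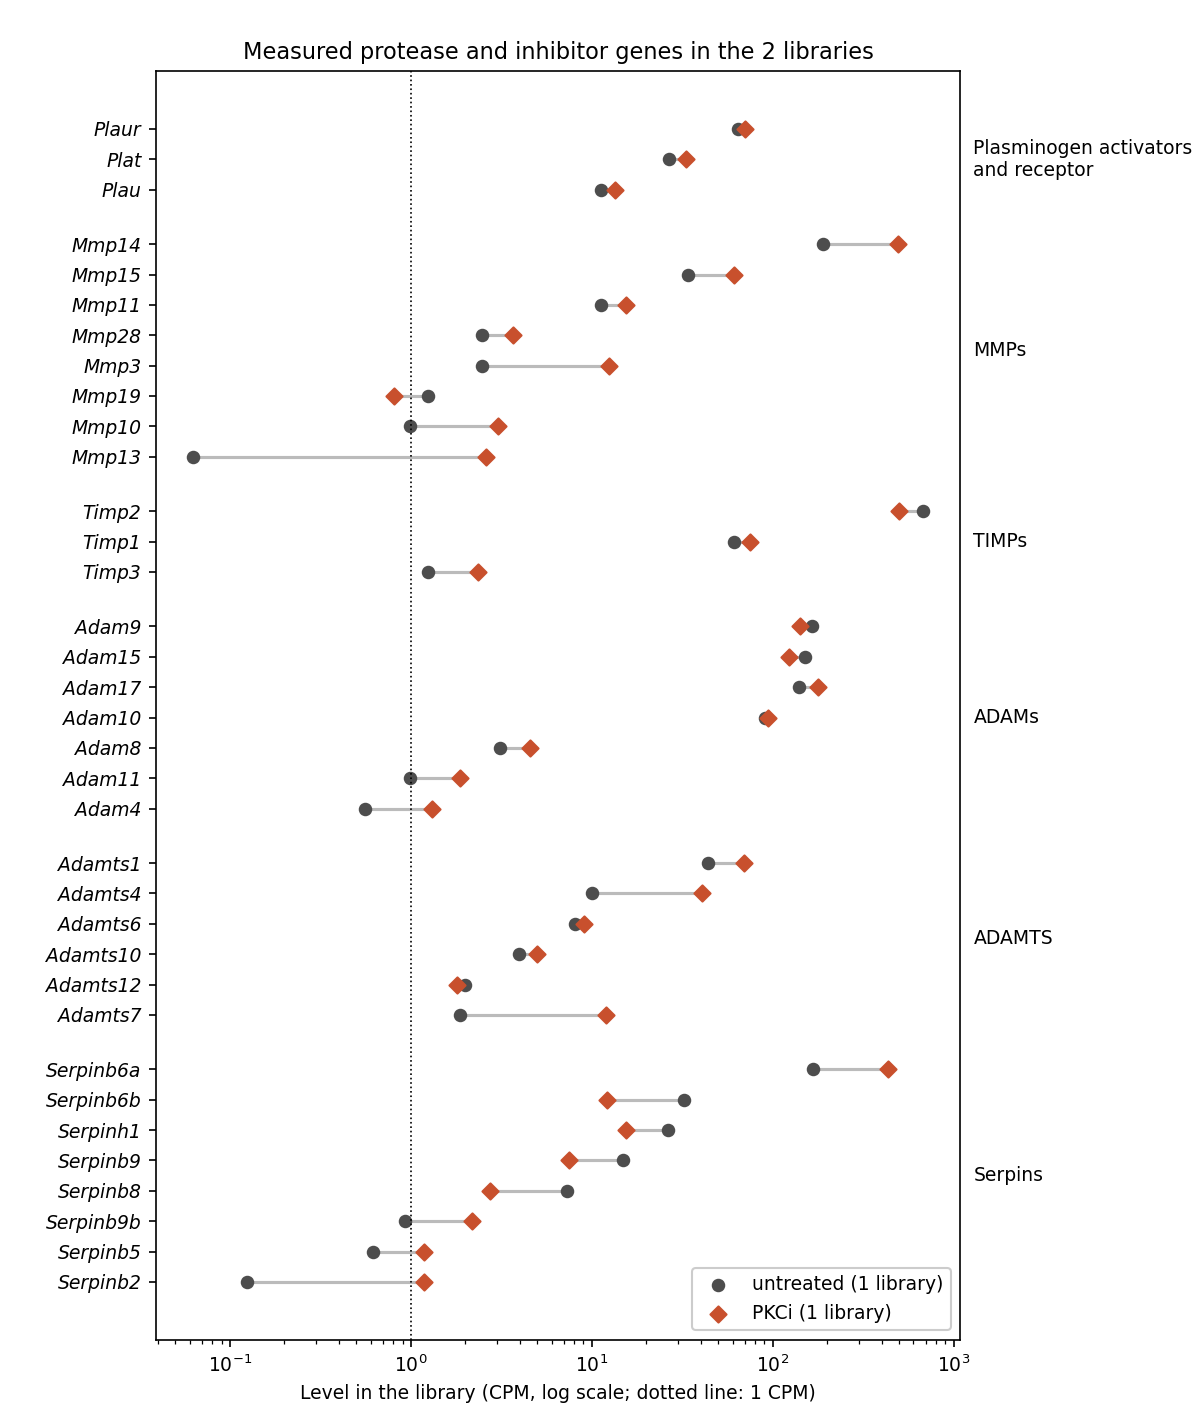
Level of 35 of the 36 measured genes in CPM on a log axis, grouped by family, with circles for the untreated library and diamonds for the PKCi library (1 library each). The widest gaps within a gene are those of Mmp13 and Serpinb2, which start from 1 and 2 counts, and Mmp14 and Serpinb6a show the widest gaps among genes above 100 CPM.

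Plasminogen activation genes stood close together in the libraries. Plau, urokinase, had 180 and 217 counts, 11.2 CPM in the untreated and 13.5 CPM in the PKCi library. Its ratio was 1.21 with a counting interval of 0.986 to 1.48, so a difference was not detectable at this depth. Plat was at 26.6 and 33.2 CPM, 1.25-fold higher (counting interval 1.10 to 1.42). Plaur, the receptor that holds urokinase at the cell surface, was at 64.5 and 70.4 CPM, a ratio of 1.09. All 3 were on the higher side of 0 and none was 2-fold apart.

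Serpins known to inhibit these activators or plasmin were weakly counted. Serpine2, protease nexin 1, had no count in either library. Serpinb2, plasminogen activator inhibitor 2, had 2 counts untreated and 19 with PKCi, a ratio of 9.51 with a counting interval of 2.29 to 84.2. Its log2 ratio of 0.96 stayed under the 2-fold line because of the pseudocount. It passed that line at a pseudocount of 0.1 CPM and with TPM scaling. Serpinb2 shared 12.4% of its exonic bases with Serpinb10, which had no count. Serpinf2, which inhibits plasmin itself, had 0 and 1 counts, and Plg, the plasminogen gene, had none.

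Among the MMPs, the membrane-type Mmp14 and Mmp15 were the most abundant per kb. Mmp14, which encodes MT1-MMP, a collagenase anchored in the membrane that also activates proMMP2, had 3066 counts untreated and 7882 with PKCi. From 190.6 to 490.4 CPM, it was 2.57-fold higher (counting interval 2.47 to 2.68). The gene (ENSMUSG00000000957) spans chr14:54431612-54445364 on the plus strand of GRCm38. Mmp15, the related MT2-MMP, was at 34.2 and 61.0 CPM, 1.78-fold higher (counting interval 1.60 to 1.98) and so under the 2-fold line. Mmp24 had 11 and 10 counts, and Mmp16, Mmp17 and Mmp25 had none. Mmp14 gave most of the MMP counts: all 22 MMP genes summed to 244 CPM in the untreated and 592 CPM in the PKCi library, and without Mmp14 to 53.7 and 101.5 CPM. The ratio of the summed counts was 2.42 with Mmp14 (counting interval 2.34 to 2.52) and 1.89 without it (counting interval 1.74 to 2.06).

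The gelatinases were near 0. Mmp2, gelatinase A, had 0 counts untreated and 2 with PKCi, and both counts are under the 3-count floor. Mmp9, gelatinase B, had 1 count untreated and 8 with PKCi, a ratio of 8.01 whose counting interval ran from 1.07 to 355. Both stayed under 1 CPM in each library, so Mmp14 was abundant in libraries in which the message of Mmp2, whose proenzyme MT1-MMP activates, was barely counted.

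The stromelysins and the collagenase Mmp13 were low in untreated cells and higher with PKCi. Mmp3, stromelysin 1, which cleaves proteoglycans and activates other MMPs, had 40 counts untreated and 199 with PKCi, or 2.49 and 12.4 CPM. It was 4.98-fold higher (counting interval 3.53 to 7.18). Mmp10, stromelysin 2, had 16 and 49 counts (0.994 and 3.05 CPM), 3.07-fold higher (counting interval 1.71 to 5.78). Mmp3 and Mmp10 are close relatives, and 8.39% of the 50-base words in Mmp3 transcripts and 8.37% of those in Mmp10 transcripts occur in another gene, so some reads could be split between them. Mmp13, collagenase 3, had 1 count untreated and 42 with PKCi, a ratio of 42.0 with a counting interval of 7.15 to 1699.9, and its level with PKCi was 2.61 CPM. Mmp11, stromelysin 3, lies on another chromosome and was at 11.3 and 15.4 CPM, 1.36-fold higher (counting interval 1.12 to 1.66). With a pseudocount of 5 CPM, Mmp10 and Mmp13 were under the 2-fold line and Mmp3 was above it.

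**Figure D2:**
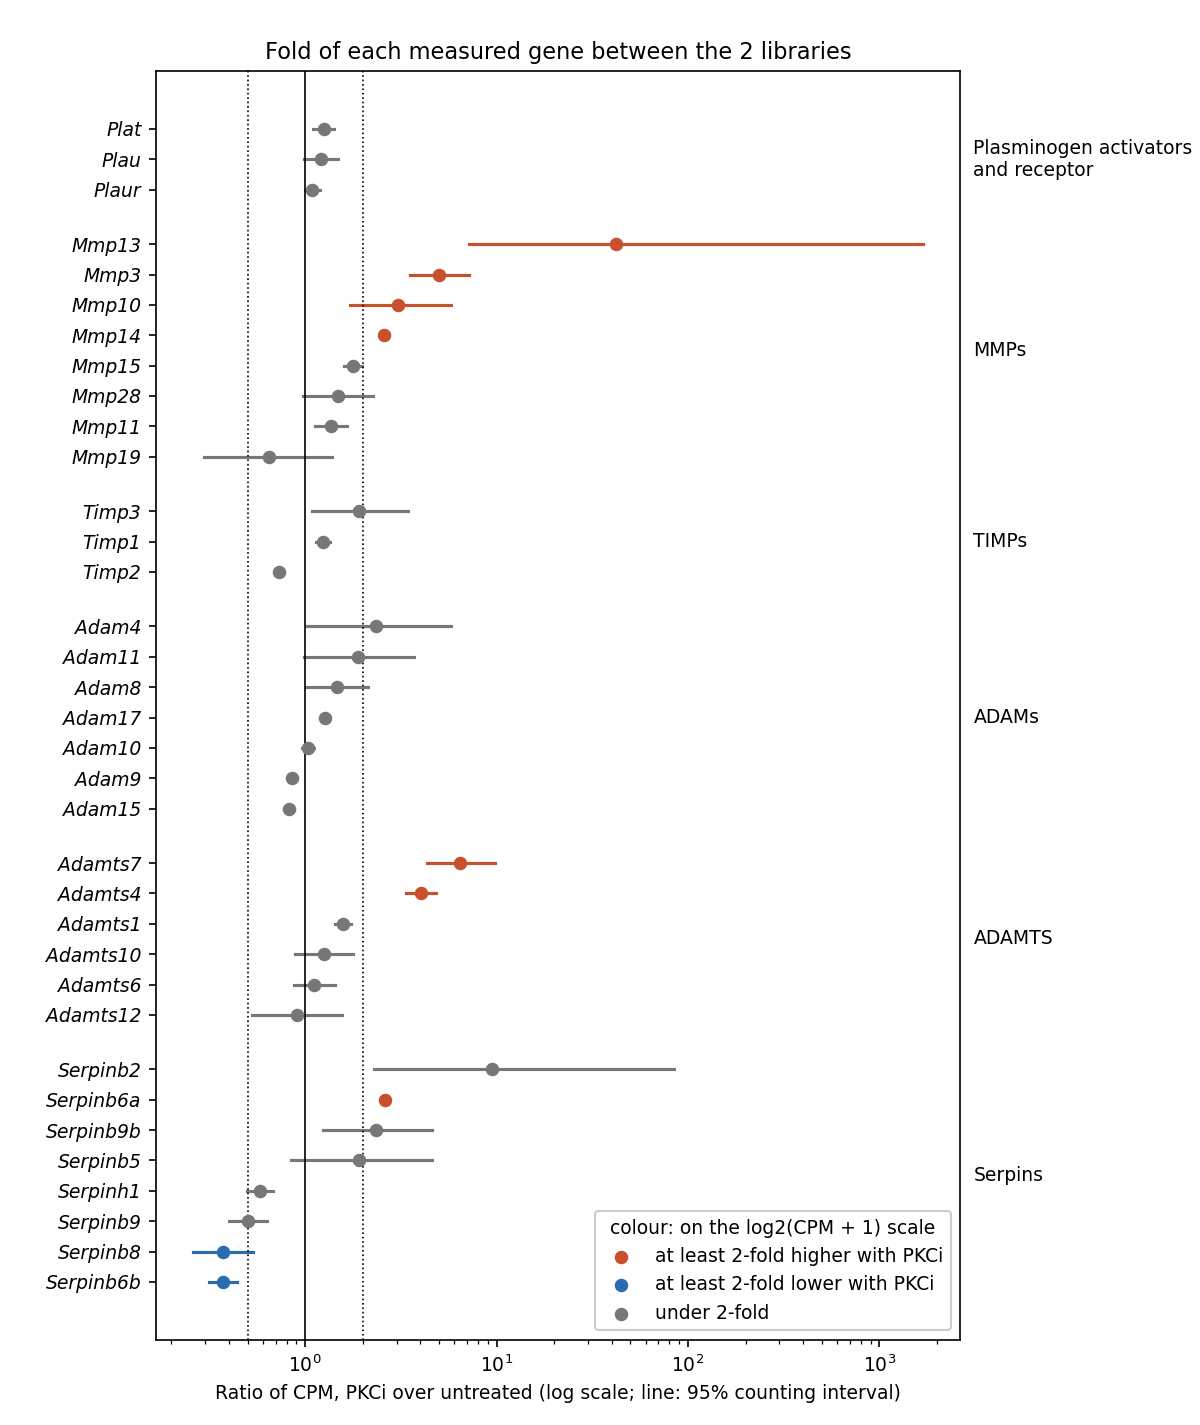
Ratio of CPM, PKCi over untreated, for 35 of the 36 measured genes on a log axis, with lines for the 95% counting intervals and colours for genes that were higher, lower or under 2-fold apart on the log2(CPM + 1) scale. The 4 coloured MMP genes and both coloured ADAMTS genes lie right of 1, while no ADAM gene is coloured and the serpins lie on both sides.

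Mmp3, Mmp10 and Mmp13 are neighbours. A run of 9 MMP genes spans 427 kb on chromosome 9 of GRCm38, from the start of Mmp13 at 7272514 to the end of Mmp7 at 7699585, in the order Mmp13, Mmp12, Mmp1b, Mmp3, Mmp10, Mmp8, Mmp27, Mmp20 and Mmp7. Mmp12, the macrophage elastase, had 0 and 13 counts. With a floor of 3 counts in the untreated library this is at least 4.34-fold higher, and its counting interval starts at 3.05. On the leukocyte list, Adgre1 and Itgam had 0 counts in both libraries and Csf1r had 0 and 1. Cd14 had 915 and 1621 counts, Lyz2 133 and 50, and Cd68 38 and 57. The cell source of Mmp12 was not tested. Mmp1b and Mmp27 had 0 and 1 counts each, and Mmp8, Mmp20 and Mmp7 had none. Mmp12, Mmp1b and Mmp27 had counts only in the PKCi library, so they could stand on the higher side only. Mmp3, Mmp10 and Mmp13 had counts in both libraries and were higher with PKCi. The run summed to 57 counts untreated and 305 with PKCi, a ratio of 5.36 (counting interval 4.03 to 7.24). Mmp3 gave 199 of these 305 counts.

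**Figure D3:**
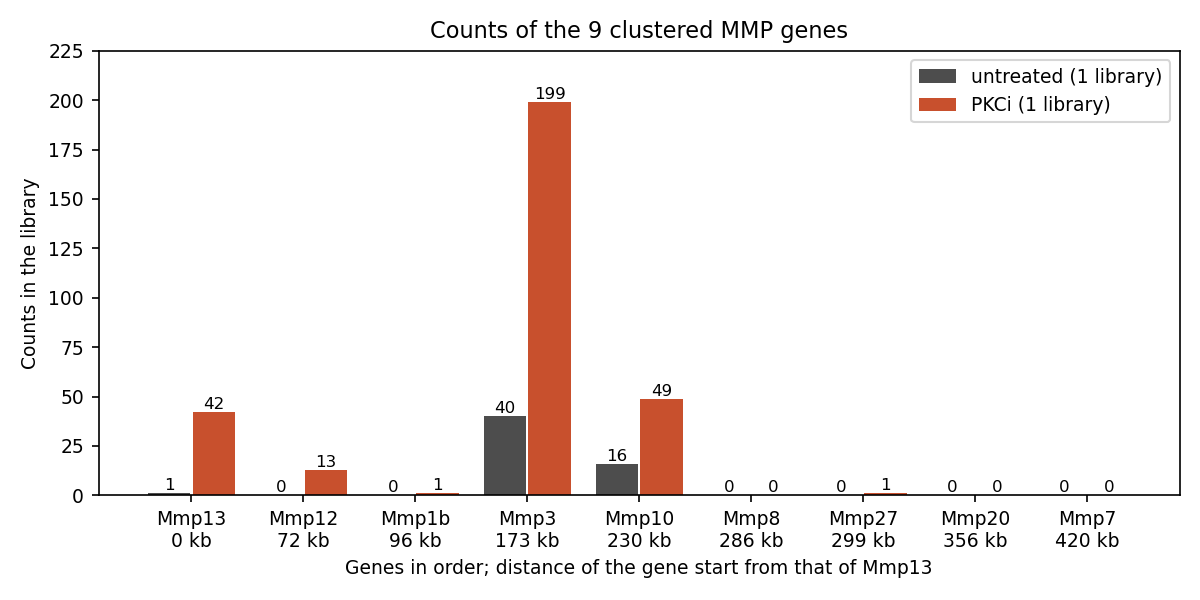
Counts of the 9 MMP genes of the chromosome 9 run in each library, in genomic order, with the distance of each gene start from that of Mmp13 in kb. Mmp3 reaches 199 counts with PKCi, Mmp10 reaches 49, Mmp13 reaches 42 and Mmp12 reaches 13, and Mmp8, Mmp20 and Mmp7 are at 0 in both libraries.

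The AP-1 letters stood in a promoter window of 6 of the 9 genes in this run (Mmp13, Mmp12, Mmp1b, Mmp3, Mmp10 and Mmp7), where a window covers 250 bases before the start and 50 bases from it. Over all promoters in the same table, 5.95% of 27025 genes and 5.20% of 32851 windows held them. Mmp7 carries the letters and had no count in either library, and Mmp27 lacks them and had its 1 count with PKCi. Promoters were found for 25 of the 36 measured members, and 5 of the 25 held the AP-1 letters: Mmp3, Mmp10, Mmp13, Plaur and Serpinb8. Of these, the 3 MMP genes were 2-fold or more higher, Plaur was 1.09-fold higher and Serpinb8 was 2.68-fold lower. The window of Mmp14 had no AP-1 match, nor did those of Mmp15, Serpinb6a and Adamts1. The ETS-type letters AGGAAG (or CTTCCT), known as PEA3, were in windows of 14 of the 25 members and of 38.4% of all genes, and the TEAD letters GGAATG (or CATTCC) in 2 of the 25 and in 16.6% of all genes. PEA3 and TEAD matches can overlap at their ends, and a match describes sequence only. Adam4, Adam9, Adam11, Adamts4, Adamts6, Adamts7, Adamts10, Mmp19, Plat and Plau are among the measured members without an entry.

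The remaining MMPs were low. Mmp28, epilysin, was at 2.49 and 3.67 CPM, with a ratio of 1.48 and a counting interval of 0.972 to 2.26. Mmp19 was the measured MMP with a log2 ratio below 0, at 20 counts untreated and 13 with PKCi, and its ratio of 0.651 had a counting interval of 0.297 to 1.37. Of its exonic bases 28.3% overlap genes on the other strand, of which Tmem198b had 151 and 222 counts. Mmp23 had 2 and 6 counts. In all, 4 of 8 measured MMPs were higher by 2-fold or more and 0 were lower, beside 6.53% and 5.13% of all genes. Of the 4, Mmp10 and Mmp13 reached 1 CPM only in the PKCi library, so this count leans toward genes that differ. The median log2 ratio of the measured MMPs was 0.92. That median was 0.51 with a pseudocount of 5 CPM and 0.13 over all 22 MMP genes with no filter.

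Timp2 and Timp1 were the most abundant messages of the set per kb. Timp2, which inhibits MMPs and also bridges MT1-MMP to proMMP2, had 10964 counts untreated and 8034 with PKCi. It was at 681 and 499.9 CPM, 1.36-fold lower (counting interval 1.32 to 1.40). Timp1 was at 60.8 and 75.2 CPM, 1.24-fold higher (counting interval 1.14 to 1.35). Timp3, which binds the matrix and also inhibits ADAM17, had 20 and 38 counts, 1.90-fold higher (counting interval 1.08 to 3.45). Of the exonic bases of Timp3, 21.3% overlap Syn3 on the other strand, which had 87 and 41 counts. Timp4 had no count. None of the 3 measured TIMPs was 2-fold apart, and they did not share a direction. As a sum, TIMP counts were lower with PKCi, at 743 and 577 CPM, with a ratio of 0.777 (counting interval 0.756 to 0.798), and Timp2 held most of this sum.

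Levels of different genes are compared per kb of listed gene length. Timp2 led in both libraries, at 174.9 CPM per kb untreated and 128 CPM per kb with PKCi, and Timp1 came next at 68.4 and 84.7. Mmp14 was at 32.0 CPM per kb untreated, behind Timp2, Timp1 and Adam9, and at 82.3 with PKCi, behind Timp2 and Timp1 only. Timp2 was therefore 5.47 times the level of Mmp14 per kb in the untreated library and 1.56 times in the PKCi library, and Timp1 was 2.14 and 1.03 times the level of Mmp14. All 22 MMP genes summed to 45.6 CPM per kb untreated and 110.6 with PKCi, beside 243.5 and 213 for the 4 TIMPs. The listed lengths cover all exons of a gene, which for Mmp14 is 5960 bases and for Timp1 888, so a gene that uses short isoforms is understated per kb.

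**Figure D4:**
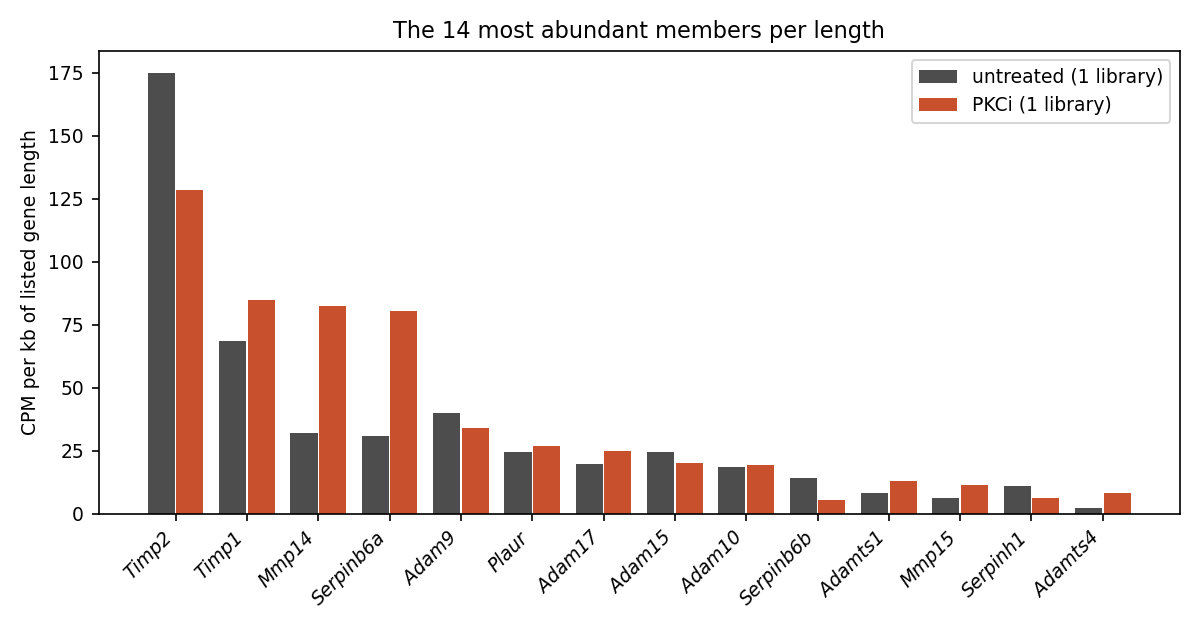
Level per kb of listed gene length (CPM per kb) of the 14 most abundant members, with grey bars for the untreated library and orange bars for the PKCi library (1 library each), ordered by the higher of the bars. Timp2 leads in both libraries, and Mmp14 and Serpinb6a stand near 32.0 and 30.8 untreated and near 82.3 and 80.3 with PKCi.

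The ADAM sheddases differed little between the libraries. Adam17, which releases TNF and ligands of the EGF receptor, had 2262 counts untreated and 2852 with PKCi, or 140.6 and 177 CPM. It was 1.26-fold higher (counting interval 1.19 to 1.33), and 4.35% of its exonic bases overlap Iah1 on the other strand, which was at 13.4 and 29.6 CPM. Adam10, the sheddase of Notch and cadherins, was at 91.2 and 94.6 CPM, a ratio of 1.04 with a counting interval of 0.965 to 1.12. Adam9 was at 164 and 141 CPM, 1.17-fold lower (counting interval 1.10 to 1.24), and Adam15 at 151 and 124 CPM, 1.22-fold lower (counting interval 1.15 to 1.29). Adam8, which leukocytes and tumour cells carry, had 50 and 73 counts, 1.46-fold higher (counting interval 1.01 to 2.14).

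Further ADAM genes were at the edge of detection. Adam11, which lacks a working catalytic site, had 16 and 30 counts. Adam4 had 9 and 21 counts and shares 17.4% of its 50-base words with other genes, Gm4787 foremost. Of the 33 ADAM genes listed, 15 had no count, among them the sperm genes Adam2 and Adam3. Adam1a, a sperm fertilin subunit, had 13 and 0 counts, which with a floor of 3 counts in the PKCi library is at least 4.33-fold lower. None of 7 measured ADAM genes was 2-fold apart, beside 11.7% of all genes. The family summed to 554 and 547 CPM, a ratio of 0.986 (counting interval 0.958 to 1.02).

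An ADAMTS gene had the widest fold among members with 1 CPM or more in both libraries. Adamts7, which degrades cartilage oligomeric matrix protein, had 30 counts untreated and 192 with PKCi, or 1.86 and 11.9 CPM. It was 6.41-fold higher (counting interval 4.35 to 9.76). Adamts4, an aggrecanase that also cuts versican, had 162 and 650 counts, or 10.1 and 40.4 CPM, and was 4.02-fold higher (counting interval 3.38 to 4.80). On GRCm38 Adamts7 (ENSMUSG00000032363) spans chr9:90163069-90208071 and Adamts4 (ENSMUSG00000006403) chr1:171250421-171260637, both on the plus strand.

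Adamts1, an aggrecanase and versicanase with antiangiogenic activity, was the most abundant of the family per kb, at 8.30 and 13.1 CPM per kb. It was at 44.0 and 69.3 CPM, 1.57-fold higher (counting interval 1.43 to 1.73). Adamts6 and Adamts10, which act on fibrillin microfibrils, were at 8.08 and 9.02 CPM and at 3.98 and 4.98 CPM, and both intervals reached across a ratio of 1 (0.875 to 1.43 and 0.890 to 1.77). Adamts12 had 32 and 29 counts. Adamts2 and Adamts3, which trim procollagen, had 2 and 1 counts and 1 and 0 counts. Of 19 ADAMTS genes 6 were measured, 2 of them higher by 2-fold or more and 0 lower, beside 6.53% and 5.13% of all genes. The family summed to 70.2 and 137.5 CPM.

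Clade B serpins differed in opposite directions. Serpinb6a, an intracellular inhibitor of cathepsin G and other serine proteases, had 2683 counts untreated and 6982 with PKCi, or 166.7 and 434.4 CPM, and was 2.61-fold higher (counting interval 2.49 to 2.73). Its relative Serpinb6b had 521 and 194 counts, or 32.4 and 12.1 CPM, and was 2.68-fold lower (counting interval 2.27 to 3.18). Per kb, Serpinb6a was 2.15 times the level of Serpinb6b untreated and 15.1 times with PKCi. Only 0.751% of the 50-base words of Serpinb6a and 2.92% of those of Serpinb6b occur in another gene. Of the exonic bases of Serpinb6a, however, 29.3% overlap Nqo2, Ripk1 and 1110046J04Rik on the other strand. The labels name both a stranded and an unstranded library kit, and the strand setting of the count is not given in the sources used here. Nqo2 was at 24.4 and 45.2 CPM, Ripk1 at 39.9 and 58.6 CPM and 1110046J04Rik at 1.12 and 5.66 CPM, all higher with PKCi.

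Other clade B serpins also stood on both sides. Serpinb8, an inhibitor of furin, had 118 counts untreated and 44 with PKCi, or 7.33 and 2.74 CPM, and was 2.68-fold lower (counting interval 1.88 to 3.88). Serpinb9, the inhibitor of granzyme B, had 238 and 120 counts, or 14.8 and 7.47 CPM, and was 1.98-fold lower (counting interval 1.58 to 2.49), just under the line. Its relative Serpinb9b had 15 and 35 counts, 2.34-fold higher (counting interval 1.24 to 4.60), and at a pseudocount of 0.1 CPM it passed the 2-fold line. Serpinb5, maspin, had 10 and 19 counts, with a counting interval of 0.842 to 4.58. Of 26 clade B genes 13 had a count and 7 were measured.

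Clade B genes lie in 2 runs on GRCm38. The run on chromosome 13 holds 15 genes from 32842092 to 34002794, 10 of them with a count, and Serpinb6b lies near its start while Serpinb6a is its last gene. In this run 6 genes were higher with PKCi and 4 lower. The run on chromosome 1 holds 11 genes from 106861173 to 107610484, 3 of them with a count. In it Serpinb5 and Serpinb2 were higher and Serpinb8, the last gene, was lower. Neither serpin run had a common direction among its counted genes. In the run on chromosome 13, however, Serpinb1a, Serpinb1b, Serpinb1c, Serpinb6d, Serpinb9c and Serpinb9g had at most 3 counts in a library. In the MMP run, Mmp12, Mmp1b and Mmp27 had counts only with PKCi. A difference in direction between the serpin runs and the MMP run was not tested.

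Of the other serpins, Serpinh1 was the abundant member. Serpinh1 encodes HSP47, a collagen chaperone of the endoplasmic reticulum that inhibits no protease. It had 426 counts untreated and 247 with PKCi, or 26.5 and 15.4 CPM, and was 1.72-fold lower (counting interval 1.47 to 2.02). Serping1, the C1 inhibitor, had 0 and 4 counts, and Serpinf1, pigment epithelium-derived factor, had 10 and 0 counts, which with the same floor is at least 3.33-fold lower. As a sum, all proteases of the set (MMPs, ADAMs, ADAMTS, Plau and Plat) were at 171 and 248 CPM per kb. Without Mmp14 they were at 139 and 166. The TIMPs and serpins (Serpinh1 included) were at 309 and 312.5 CPM per kb. Within that sum Timp2 was at 174.9 and 128 CPM per kb, and Serpinb6a, which acts inside the cell, at 30.8 and 80.3. Of 23 measured proteases 6 were higher by 2-fold or more and 0 lower, Mmp10 and Mmp13 having reached 1 CPM only with PKCi. Of 12 measured TIMPs and serpins, Serpinh1 included, 1 was higher and 2 were lower. In either direction these are 26.1% and 25.0%, beside 11.7% of all genes (6.53% higher, 5.13% lower).

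Proteases outside these families were counted from a list of 46, of which 26 reached 1 CPM, 2 were higher and 4 lower by 2-fold or more. Over all genes 6.53% were higher and 5.13% lower by as much. Prss23, a secreted serine protease, was 10.3-fold lower (124 and 12 counts, counting interval 5.70 to 20.5). Pappa2, which cleaves IGF-binding proteins, was 5.67-fold lower (15.2 and 2.68 CPM), and Pcsk6, a proprotein convertase, 3.11-fold lower (273.5 and 87.9 CPM). Prss22, tryptase epsilon, which activates urokinase, was 2.69-fold higher (67.9 and 183 CPM). The others past 2-fold, named after their values were seen, were the cathepsin gene Ctsl (646 and 1627 CPM), higher, and the membrane serine protease gene Tmprss2 (64 and 19 counts), lower. Of 29 other inhibitor genes found, 11 were measured, 2 of them higher by 2-fold or more and 0 lower. Slpi, the secretory leukocyte protease inhibitor, was 3.65-fold higher (158 and 578 CPM, counting interval 3.49 to 3.81), while Wfdc2 was 1.95-fold lower (413 and 211 CPM) and cystatin C (Cst3) 1.52-fold lower. Cystatin B (Cstb) was 1.35-fold higher. Pi15, named after its values were seen, had 4 and 35 counts. Reck, a membrane-anchored MMP inhibitor, had 0 and 2 counts.

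Genes that anchor, clear or regulate these proteases were also read from fixed lists. Over all genes 11.7% were at least 2-fold apart, 6.53% higher and 5.13% lower, and lists this short say little beside such shares. Of 16 measured genes of anchoring and clearance none was 2-fold apart. Annexin A2 (Anxa2), a surface receptor for plasminogen and Plat, was at 921 and 1776 CPM, 1.93-fold higher (counting interval 1.89 to 1.97). Lrp1, which takes up protease and inhibitor complexes, was 1.54-fold higher. Its chaperone Lrpap1 was 1.70-fold lower, and the sorting receptor gene Sort1 was 2.03-fold lower as a plain ratio, with a log2 ratio of -0.99. Of 10 measured regulators of ADAM and ADAMTS proteins, 2 were higher and 2 lower by 2-fold or more. Tspan17 and Tspan5 encode TspanC8 tetraspanins, which escort ADAM10 to the surface. Tspan17 was at 5.03 and 26.0 CPM, 5.17-fold higher (counting interval 4.06 to 6.64), and Tspan5 was at 83.8 and 40.9 CPM, 2.05-fold lower (counting interval 1.87 to 2.25). The ADAMTS-like matrix protein genes also parted, Adamtsl5 2.55-fold higher and Adamtsl4 2.88-fold lower.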

How the data were processed

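RNA sequencing of CMT167R cells gave 2 libraries, 1 untreated and 1 given PKCi, grouped by the treatment in the labels. Per the labels, paired-end reads came from mRNA libraries, made with a stranded kit in one description and an unstranded kit in another, and the submitters' processing notes name HISAT2 2.0.5 and GRCm38 (mm10). The authors deposited whole-number counts per gene, under a table name that speaks of FPKM, with other columns for position and listed length. Not given in the sources used here: counting program, strand setting, annotation release. Per-sample columns without a sample numbered 0. All 114 gene identifiers were in GENCODE M21, 113 at the same position.

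Counts were scaled to CPM by the library total (16090186 and 16071153). Genes that reached 1 CPM in a library were used, and the log2 ratio had a pseudocount of 1 CPM. A gene was counted at 2-fold or more. Intervals of folds were exact conditional binomial ones at 95% (scipy 1.17.1). Without molecular identifiers reads are not independent molecules, so intervals and the 3-count floor cover counting error only. Shared 50-base words came from GENCODE M21 transcripts, and promoters from RefSeq. Runs of genes were joined across gaps of up to 500 kb. Alternatives changed the pseudocount, the filter and the scaling (edgeR 4.0.16, DESeq2 1.42.0 factors, TPM). The procedure was tested on simulated counts that held counting error only, with differences set in genes at 5 CPM or more. That says nothing on variation between cultures or on weakly counted genes. The members, roles and lists were chosen with earlier results of these data known. Genes named were all members at least 2-fold apart, a fixed set of well-known members, the 3 most abundant per length of each role group, and up to 4 genes of each other list with the largest absolute log2 ratios among those at 5 CPM or more in a library. Further members are named to account for them, and Tmem198b, Syn3, Iah1, Nqo2, Ripk1 and 1110046J04Rik as overlapping genes. Some results that this rule names are not reported here.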

Additional observations from a re-analysis of the deposited data

How the results depend on the processing

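With 1 library per group, no replicate could be left out. No paired analysis was possible because each group has 1 library. Of the 9 members at least 2-fold apart, all 9 kept call and direction with no filter, a mean filter of 1 CPM, a pseudocount of 0.1 CPM, TMM factors, median-of-ratios factors and TPM. With a pseudocount of 5 CPM 6 were kept (Mmp10, Mmp13 and Serpinb8 lost), and with a filter of 5 CPM 7 were kept, as Mmp10 and Mmp13 were not tested there. With a pseudocount of 5 CPM, 1 member instead of 2 was at least 2-fold lower, as was 1 clade B serpin, and 2 MMPs instead of 4 were higher, as with the 5 CPM filter. With a pseudocount of 0.1 CPM, 1 ADAM gene instead of 0 and 3 clade B serpins instead of 1 were at least 2-fold higher, and with TPM 2 clade B serpins. The median log2 ratio of members was 0.20 with a pseudocount of 5 CPM and 0.00 with no filter, since 47 of the 114 genes were at 0 in both; that of the MMPs was 0.51 and 0.13. Of 270 values of single genes under these settings 265 stayed within their counting interval after it was put on the log2(CPM + 1) scale. The filters leave the ratio of a gene unchanged, so values under them could not move. The 5 that moved were those of Adamts4, Adamts7, Mmp3, Mmp10 and Serpinb8 with a pseudocount of 5 CPM. No log2 ratio of a measured member changed sign, but a change of pseudocount or filter cannot change a sign, so only the scaling settings could have shown this. Over all genes the share at least 2-fold apart was 16.9% with a pseudocount of 0.1 CPM, 6.30% with 5 CPM, 2.63% with no filter and 16.8% with TPM, beside 11.7%. Depth limits genes under about 16.1 counts.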
